A study of Mus musculus with 30 samples.

Results

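This report covers 9 mouse genes of creatine cycling and calcium cycling: Ckb, Alpl, Gatm, Gamt, Slc6a8, Ckmt1, Ckmt2, Atp2a2 and Ryr2. They were taken by gene symbol from the 21652 genes of the deposited tables, and each symbol matched 1 row. PolyA RNA was sequenced from the inguinal white fat (iWAT) and the brown fat (BAT) of C57BL/6J males aged 7 to 8 weeks, with no genetic change named. Each tissue had 5 libraries labelled 22 °C, and 5 for each of 6 h and 24 h of exposure to 6 °C, 30 in all. The mice were housed 5 per cage in a room given as 24 ± 2 °C, so the label of 22 °C lies at the lower edge of that range. The labels do not say whether the 5 libraries of a group came from separate animals or whether equal numbers mark the same mouse, so p-values measure only the spread between these libraries.

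Creatine is made in sequence by GATM and GAMT, enters cells through the transporter SLC6A8, and is charged to phosphocreatine by creatine kinases, of which CKB is the cytosolic brain-type form and CKMT1 and CKMT2 the mitochondrial forms. In brown and beige adipocytes a cycle has been described in which a phosphatase, tissue-nonspecific alkaline phosphatase (Alpl), dephosphorylates phosphocreatine so that creatine is charged again and ATP is spent as heat. A separate cycle has been described in beige adipocytes, in which the endoplasmic reticulum pump SERCA2 (Atp2a2) spends ATP to store calcium that the release channel RYR2 lets out. Several of these genes, Ckmt2 above all, are also expressed strongly in striated muscle, which lies beside both fat pads.

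Library totals were 25345889 to 40986043 assigned reads. Levels are in CPM, counts per 1000000 reads with TMM-scaled library sizes over all 30 libraries, and comparisons between genes use the deposited FPKM, which divides by gene length. Adipoq, an adipocyte secretory gene, lay at 2064 to 2554 CPM in iWAT at 22 °C and at 650 to 940 CPM in BAT. Zic1, a marker of classical brown fat, reached 8.69 to 28.6 CPM in BAT across temperatures and at most 0.0276 CPM in iWAT. In these bulk samples, fewer cells of a type and less RNA per cell cannot be told apart. Summed over 15 skeletal muscle markers, 14 of the 15 iWAT libraries held 43.2 to 98.1 CPM, but replicate 2 at 22 °C held 3918 CPM. Of these markers Myh4 and Pvalb were at 0 in all iWAT libraries at 6 h. Tnnc2 had 0 or 1 counts in every library, the muscle-rich ones included, so it carried no information here. BAT ranged from 55.8 to 9539 CPM, with 349 to 9539 CPM at 22 °C, 89.2 to 1716 CPM at 6 h and 55.8 to 4852 CPM at 24 h. Results that touch these libraries are given below with the muscle values beside them.

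The promoters of Ckb and Alpl are shown because these 2 members rose at both times in BAT and had a promoter window. Atp2a2 also rose there at both times but had no window. The sequences are the 250 bases before the RefSeq transcription start in GRCm38.p6, whereas the submitters' notes name GRCm39 for the counts. Alpl has a pair of starts in that table. Capitals mark matches on either strand to the core of the cyclic AMP response element (TGACG), to a core motif of nuclear receptors (AGGTCA) or to the TATA box of core promoters (TATAAA). All lie on the minus strand of the chromosome and are written in the direction of transcription, at chr12:111672339-111672588 (Ckb), chr4:137796385-137796634 (Alpl, promoter 1) and chr4:137766476-137766725 (Alpl, promoter 2).
Ckb: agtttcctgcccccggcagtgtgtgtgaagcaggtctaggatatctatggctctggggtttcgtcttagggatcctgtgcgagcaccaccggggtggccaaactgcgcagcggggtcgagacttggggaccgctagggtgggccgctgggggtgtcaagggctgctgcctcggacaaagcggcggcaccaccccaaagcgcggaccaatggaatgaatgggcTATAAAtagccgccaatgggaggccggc
Alpl, promoter 1: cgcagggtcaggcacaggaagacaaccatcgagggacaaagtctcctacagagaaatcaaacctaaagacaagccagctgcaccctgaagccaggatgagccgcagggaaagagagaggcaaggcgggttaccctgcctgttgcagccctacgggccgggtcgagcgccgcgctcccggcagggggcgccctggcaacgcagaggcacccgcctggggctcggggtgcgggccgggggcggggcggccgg
Alpl, promoter 2: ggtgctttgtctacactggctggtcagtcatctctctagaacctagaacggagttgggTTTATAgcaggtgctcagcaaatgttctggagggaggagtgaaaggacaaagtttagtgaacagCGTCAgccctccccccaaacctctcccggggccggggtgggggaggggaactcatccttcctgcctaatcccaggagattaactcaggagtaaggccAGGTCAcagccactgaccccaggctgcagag

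The Ckb window held TATAAA beginning at position -28 from the start, overlapping a match to the core of the MEF2 motif that begins at -29. TATAAA was found on either strand in 12.4% of the 32851 promoter windows of the table, and the MEF2 core in 3.20%. Promoter 1 of Alpl held GGGCGG (a GC box) at -15 and -10, which 32.7% of the windows held at least once. Promoter 2 held AGGTCA at -31 (14.02% of windows), TGACG at -128 on the opposite strand (17.8%) and TATAAA at -192 on the opposite strand. The full element TGACGTCA (1.55% of windows), the longer AAGGTCA (4.08%) and CACGTG (6.02%) were not in these 3 windows, which says only that these letters are absent there. Of the 9 members 7 had a window in the table, and no binding or chromatin data were used here to say which Alpl start these tissues use.

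In BAT, Ckb and Alpl mRNA climbed at 6 h and again at 24 h, and Atp2a2 was moderately higher at both times. Of 8 members tested 3 rose and 0 fell at 6 h, where 12.5% of all genes rose and 10.2% fell (22.7% called in all). At 24 h 3 of 8 rose again and 0 fell, against 12.8% and 10.4% of all genes (23.1% in all). Between 6 h and 24 h, 2 members rose, Ckb and Alpl, and 0 fell, where 6.60% of all genes rose and 6.45% fell (13.0% called). Ckmt1 was too low to test. A gene was called when its Benjamini-Hochberg adjusted p over all tested genes was under 0.05 in edgeR's quasi-likelihood test.

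Ckb (ENSMUSG00000001270), the cytosolic creatine kinase, had the largest called response of the members in BAT at both times. In BAT at 22 °C it measured 30.1, 42.3, 21.0, 28.2 and 34.8 CPM in replicates 1 to 5. After 6 h it measured 148, 133, 169, 122 and 158 CPM. After 24 h it measured 599.9, 402, 544, 418 and 315 CPM. The 3 groups did not overlap, and even the lowest library at 24 h lay above the highest at 6 h. The log2 fold change was 2.21 ± 0.18 (SE) at 6 h (4.62-fold, adjusted p = 1.31e-06, edgeR) and 3.85 ± 0.20 at 24 h (14.4-fold, adjusted p = 1.02e-08). The step from 6 h to 24 h was 1.64 ± 0.18 on the log2 scale (adjusted p = 5.26e-05).

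In iWAT Ckb was lower and moved later. It measured 17.3, 13.3, 11.3, 16.6 and 15.5 CPM at 22 °C, and 18.9, 15.8, 15.7, 9.14 and 19.7 CPM at 6 h. At 24 h it measured 33.8, 28.8, 24.0, 22.5 and 35.3 CPM. The 6 h libraries overlapped the controls, whereas all 5 libraries at 24 h lay above every other iWAT library. On the log2 scale Ckb differed by 0.08 ± 0.18 at 6 h (adjusted p = 0.778) and 0.94 ± 0.18 at 24 h (adjusted p = 0.00265, edgeR). Levels of Ckb in iWAT at 24 h, 28.8 ± 5.70 CPM (SD, n = 5), were close to those of BAT at 22 °C, 31.3 ± 7.88 CPM (SD, n = 5), and the libraries of these groups overlapped.

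The response of Ckb differed between the tissues. The BAT response exceeded that of iWAT by 2.12 ± 0.27 on the log2 scale at 6 h (adjusted p = 3.82e-05, edgeR, all 30 libraries) and by 2.91 ± 0.28 at 24 h (adjusted p = 3.37e-07). Ckb was the member called in this test at each time, 1 of 8, with the response larger in BAT. At 6 h 9.40% of all genes were called, 3.38% with the higher value in BAT and 6.03% with the lower. At 24 h 7.81% were called, 2.96% higher and 4.85% lower. For Alpl the difference was 0.66 ± 0.35 at 6 h and 0.61 ± 0.34 at 24 h, and neither passed (adjusted p = 0.232 and 0.284). These tests and those within each tissue use the same control libraries.

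**Figure D1:**
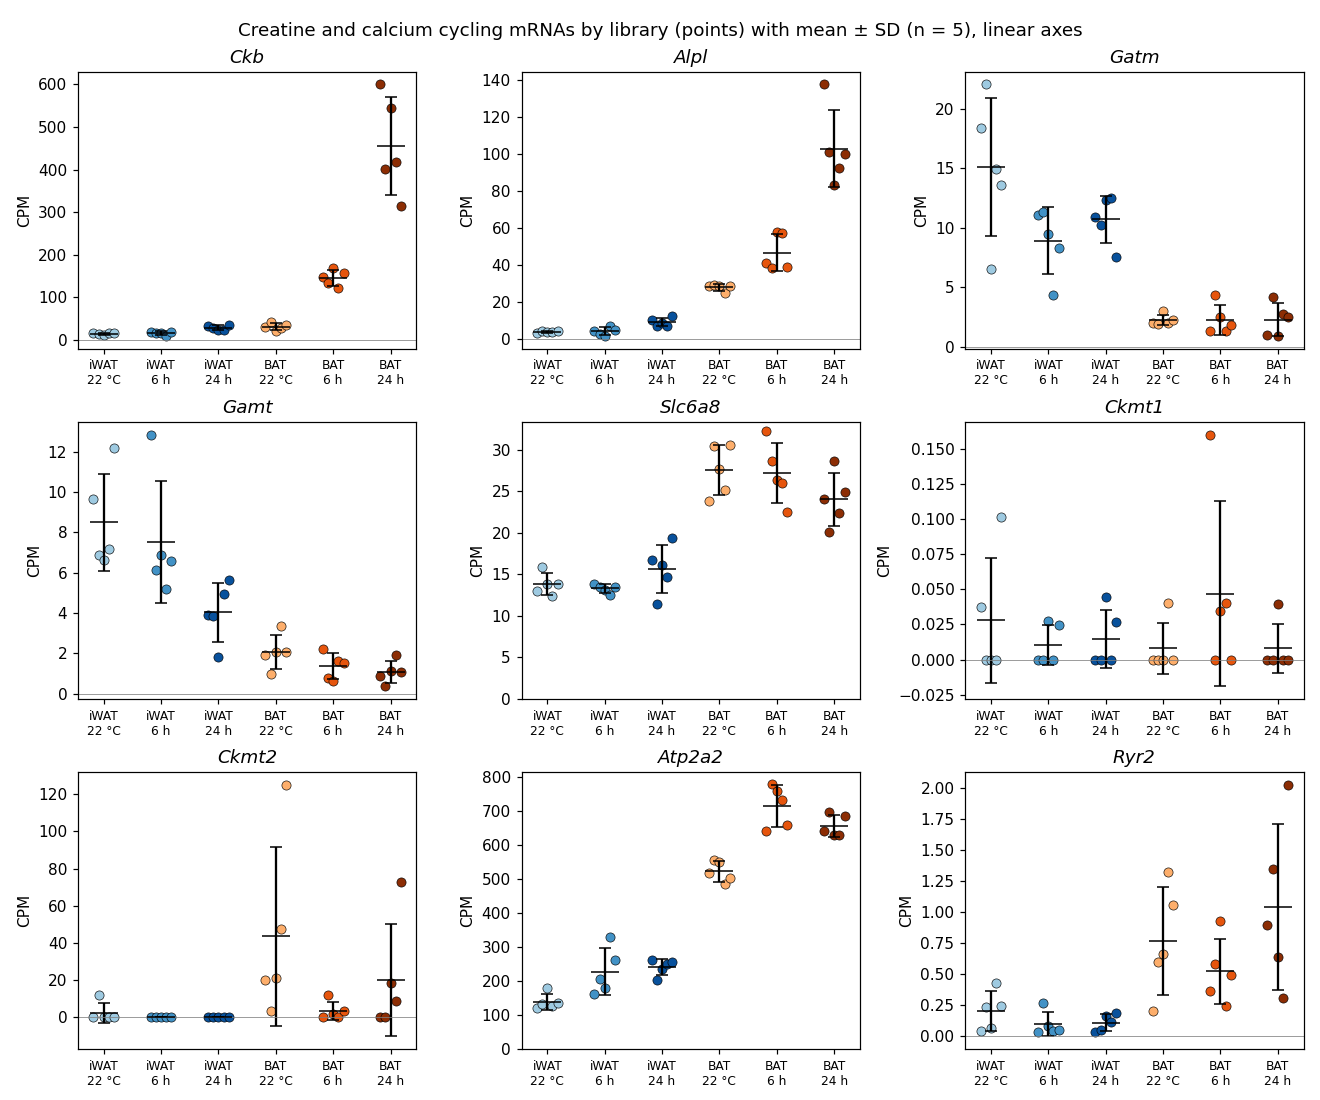
CPM of the 9 members (panels, linear axes of different height) in each library (points, 5 per group), with the group mean and SD (bars). Ckb and Alpl step up from 22 °C to 6 h to 24 h in BAT without overlap between groups, while Ckmt2 is spread widely within groups of BAT and reaches 11.8 CPM in 1 iWAT library.

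Alpl (ENSMUSG00000028766), the phosphatase, rose in BAT in the same order of times but less steeply. It measured 28.7, 29.2, 28.4, 24.4 and 28.3 CPM at 22 °C, then 41.1, 38.2, 57.8, 57.0 and 38.8 CPM at 6 h. At 24 h it measured 138, 101, 83.5, 92.4 and 99.9 CPM. No library of a later group lay within the range of an earlier one. The log2 fold change was 0.73 ± 0.14 at 6 h (adjusted p = 0.00118, edgeR), 1.87 ± 0.14 at 24 h (adjusted p = 3.71e-07) and 1.14 ± 0.14 from 6 h to 24 h (adjusted p = 0.000108).

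Alpl in iWAT measured 2.76, 4.32, 3.60, 3.63 and 4.05 CPM at 22 °C. At 6 h it measured 4.15, 2.63, 1.30, 6.70 and 4.83 CPM, and at 24 h 10.2, 6.76, 8.34, 7.03 and 12.3 CPM. The 6 h libraries spread to both sides of the controls, and the 24 h libraries all lay above them. Alpl rose by 1.26 ± 0.31 on the log2 scale at 24 h (adjusted p = 0.00900, edgeR), and the value at 6 h was 0.07 ± 0.31 (adjusted p = 0.891). In iWAT 1 of 6 tested members rose at 6 h and 0 fell, where 12.9% of all genes rose and 10.1% fell (23.0% called), and at 24 h 3 rose and 1 fell, where the shares were 12.8% and 10.1% (23.0% called).

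From 6 h to 24 h in iWAT no member was called by edgeR, where 0.00731% of all genes were (1 gene, with 1351 genes at an unadjusted p under 0.05 and 122 genes called by DESeq2). For Ckb the step was 0.87 ± 0.18 (adjusted p = 0.147) and for Alpl 1.20 ± 0.31 (adjusted p = 0.203), although the 24 h libraries of both lay above all 6 h libraries. DESeq2 called both steps, with adjusted p = 0.00432 for Ckb and 0.0221 for Alpl, and so did edgeR with all 30 libraries in 1 fit (0.0389 and 0.0234).

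Atp2a2 (ENSMUSG00000029467), the SERCA2 pump, was the member that rose at both times in both tissues. In iWAT it measured 121, 132, 179, 127 and 136 CPM at 22 °C, then 163, 206, 178, 329 and 262 CPM at 6 h, and 262, 202, 234, 249 and 257 CPM at 24 h. At 6 h 3 of the 5 libraries lay above all controls, and at 24 h all 5 did. Atp2a2 rose by 0.69 ± 0.17 on the log2 scale at 6 h (1.61-fold, adjusted p = 0.0120, edgeR) and 0.77 ± 0.17 at 24 h (1.71-fold, adjusted p = 0.00492). On the log2(FPKM + 1) scale the 6 h change was 0.41 (adjusted p = 0.0520, limma), just past the threshold.

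In BAT Atp2a2 started higher and moved by a smaller factor. It measured 518, 555, 551, 484 and 503 CPM at 22 °C, 642, 780, 759, 732 and 658 CPM at 6 h, and 642, 698, 630, 628 and 683 CPM at 24 h. All 10 cold libraries lay above the 5 controls, and the cold groups overlapped each other. The rise in BAT was 0.44 ± 0.07 on the log2 scale at 6 h (1.35-fold, adjusted p = 0.000242, edgeR) and 0.31 ± 0.07 at 24 h (1.24-fold, adjusted p = 0.00324). In the fit of all 30 libraries the 24 h value was 0.33 with adjusted p = 0.0826. The difference of the responses between BAT and iWAT was -0.26 ± 0.19 at 6 h and -0.46 ± 0.19 at 24 h, and neither passed (adjusted p = 0.405 and 0.130).

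**Figure D2:**
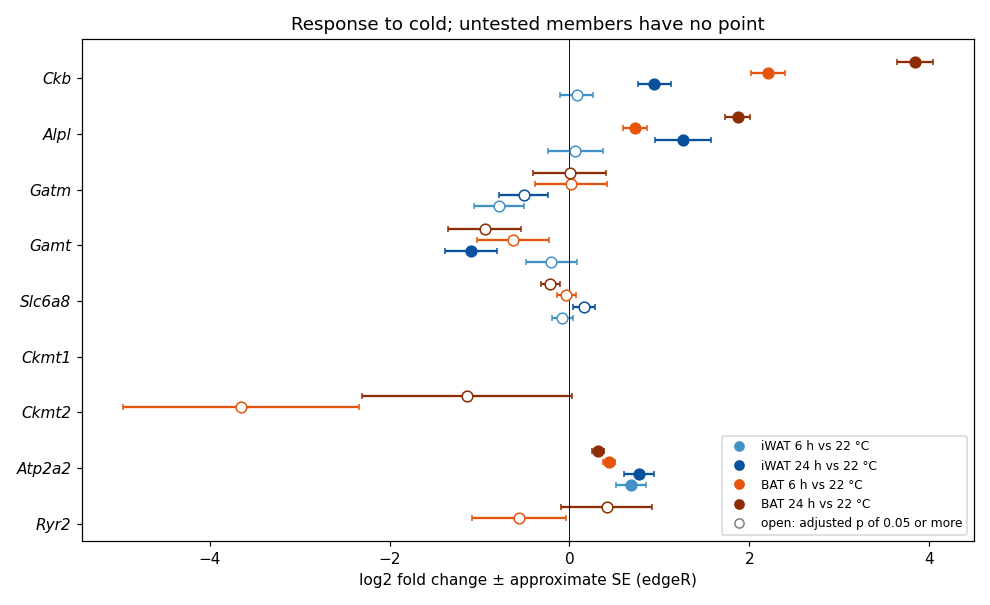
Log2 fold change of each tested member against 22 °C (horizontal axis, bars are approximate SE), for iWAT and BAT at 6 h and 24 h. Filled points passed an adjusted p under 0.05 in edgeR's test. Ckb in BAT stands at 2.21 and 3.85, Atp2a2 is right of 0 with filled points in all 4 comparisons, and Ckmt2 has the widest errors.

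The enzymes of creatine synthesis did not share the rise. Gamt (ENSMUSG00000020150), which methylates guanidinoacetate to creatine, fell in iWAT at 24 h. It measured 9.67, 6.86, 6.60, 7.17 and 12.2 CPM at 22 °C, 12.8, 6.13, 6.87, 5.20 and 6.57 CPM at 6 h, and 3.89, 3.85, 1.81, 4.94 and 5.66 CPM at 24 h. All 5 libraries at 24 h lay below all controls, and 4 of the 5 also lay below all 6 h libraries. Gamt stood at -1.10 ± 0.29 on the log2 scale against 22 °C at 24 h (2.14-fold lower, adjusted p = 0.0130, edgeR) and -0.20 ± 0.28 at 6 h (adjusted p = 0.625).

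In BAT Gamt was low, at 2.08 ± 0.83 CPM (SD, n = 5) at 22 °C, 1.36 ± 0.64 CPM at 6 h and 1.08 ± 0.55 CPM at 24 h. These groups overlapped. The value at 24 h was -0.94 ± 0.41 on the log2 scale and did not pass (adjusted p = 0.108, edgeR). The difference of the 24 h responses between the tissues was 0.15 ± 0.51 (adjusted p = 0.891).

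Gatm (ENSMUSG00000027199), which makes guanidinoacetate and is the committed step of creatine synthesis, varied widely between the iWAT controls. It measured 18.4, 22.1, 6.58, 14.9 and 13.6 CPM at 22 °C, 11.1, 11.3, 9.52, 4.37 and 8.28 CPM at 6 h, and 10.9, 10.3, 12.3, 12.5 and 7.57 CPM at 24 h. The lowest control lay below 4 of the 5 libraries at 6 h and all 5 at 24 h. The log2 fold change was -0.78 ± 0.28 at 6 h (adjusted p = 0.0507, edgeR) and -0.51 ± 0.27 at 24 h (adjusted p = 0.188). The 6 h value was called with DESeq2 (adjusted p = 0.0249), upper-quartile factors (0.0404), the 1 CPM filter (0.0497) and limma on both FPKM scales (0.0235 and 0.0254). By edgeR it was not called without a filter (0.0623), with the replicate block (0.0683) or with the muscle covariate (-0.63, 0.126). Over all other settings the 6 h value ranged from -0.96 to -0.19, with adjusted p up to 0.839. Leaving out 1 library gave -0.97 to -0.61, with adjusted p = 0.0157 without replicate 3 at 22 °C and 0.141 without replicate 2. In BAT Gatm averaged 2.25, 2.30 and 2.29 CPM at 22 °C, 6 h and 24 h.

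Gatm moved with markers of Schwann cells and nerve (6 genes summed, among them Mbp, S100b, Sox10 and Prx). These markers summed to 97.2 to 310 CPM in iWAT at 22 °C, 86.3 to 279 CPM at 6 h and 119 to 198 CPM at 24 h, with none of the 6 at 0 in any library. The iWAT control with the lowest sum was also the lowest in Gatm, and the 2 controls with the highest sums were the highest. With the mean log2 level of these markers as a covariate, added after the data were seen, the slope of Gatm in iWAT was 0.98 ± 0.18 log2 units per unit (adjusted p = 0.0329, edgeR), where 0.205% of all genes had a called slope. In BAT the slope was 1.06 ± 0.22 but did not pass (adjusted p = 0.315), and over all libraries it was 1.01 ± 0.14 (adjusted p = 0.000186). The cold value of Gatm in iWAT at 6 h was not called with this covariate. It was not called without the covariate either (adjusted p = 0.0507, edgeR), so no call was lost.

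The 3 genes most like Gatm over the 15 iWAT libraries, by Pearson's correlation of log2 CPM, were Gpm6b (0.94), Cadm4 (0.93) and Plekha4 (0.93). In BAT the 2 most alike were Vcpip1 (0.83) and Patj (0.80). These correlations are descriptions over libraries that share temperature groups.

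**Figure D3:**
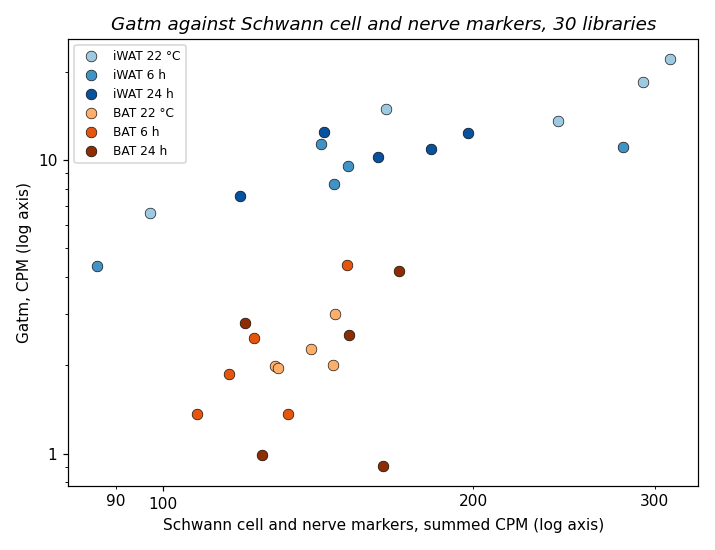
Gatm CPM (vertical, log axis) against the summed CPM of 6 Schwann cell and nerve markers (horizontal, log axis) in 30 libraries. Within iWAT the libraries lowest in the markers are lowest in Gatm, and BAT lies below iWAT at like marker sums, with Gatm at 0.911 to 4.40 CPM.

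Slc6a8 (ENSMUSG00000019558), the creatine transporter, was not called in any cold comparison. It averaged 13.8 ± 1.32, 13.3 ± 0.50 and 15.7 ± 2.91 CPM (SD, n = 5) in iWAT at 22 °C, 6 h and 24 h, and the groups overlapped. In BAT it averaged 27.5 ± 3.04, 27.2 ± 3.61 and 24.0 ± 3.19 CPM. The log2 fold changes were -0.08 ± 0.12 and 0.16 ± 0.12 in iWAT, and -0.04 ± 0.11 and -0.21 ± 0.11 in BAT, with adjusted p from 0.171 to 0.851 (edgeR).

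The mitochondrial kinases differed from Ckb. Ckmt1 (ENSMUSG00000000308) had 0 to 5 counts in every library and 0 in 19 of 30, at or near the floor of counting, so no fold change is given. Ckmt2 (ENSMUSG00000021622) had more than 3 counts in 1 of the 15 iWAT libraries and was uneven in BAT. In iWAT at 22 °C it had 3, 451, 2, 1 and 2 counts in replicates 1 to 5, and in the 10 cold libraries 0 or 1. The library with 451 counts is the one with 3918 CPM of muscle markers. Among its 149741 muscle marker counts this is 3.01 Ckmt2 counts per 1000, and it also held 15235 counts of Ckm, the creatine kinase of muscle cytosol, against 0 to 4 in the other controls.

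The filter removed Ckmt2 from the iWAT test. Without a filter edgeR called it lower at 6 h and at 24 h (adjusted p = 0.0140 and 0.0130), and those calls rest on replicate 2 at 22 °C, since the other 4 controls had at most 3 counts. Leaving that library out, all 14 remaining iWAT libraries had 0 to 3 counts of Ckmt2.

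In BAT Ckmt2 measured 20.1, 3.38, 21.2, 47.7 and 125 CPM at 22 °C. At 6 h it measured 0, 12.1, 1.62, 0.201 and 3.26 CPM, and at 24 h 0.216, 0, 18.5, 8.72 and 72.6 CPM. The libraries of each group were spread widely, and all 3 groups overlapped. The log2 fold change was -3.66 ± 1.31 at 6 h (adjusted p = 0.0550, edgeR) and -1.14 ± 1.17 at 24 h (adjusted p = 0.521).

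The order of BAT libraries by Ckmt2 followed the muscle markers. The 4 BAT libraries under 100 CPM of muscle markers, 2 at 6 h and 2 at 24 h, had 0 to 7 Ckmt2 counts. The 2 with 0 counts allow at most 3 counts each, or 0.120 CPM (6 h, replicate 1) and 0.140 CPM (24 h, replicate 2), by counting error alone. In the 7 BAT libraries with at least 1000 CPM of muscle markers, Ckmt2 had 7.03 to 14.96 counts per 1000 muscle marker counts. The library with the most Ckmt2 at 22 °C, replicate 5 with 125 CPM, had the largest muscle sum, 9539 CPM, and the same held at 24 h for replicate 5, with 72.6 CPM of Ckmt2 and a muscle sum of 4852 CPM.

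With the mean log2 level of the 15 muscle markers as a covariate, the slope of Ckmt2 in BAT was 1.13 ± 0.04 log2 units per unit (adjusted p = 7.47e-13, edgeR), where 2.26% of all genes had a called slope. Known muscle genes outside that list had like slopes, with 1.20 ± 0.04 for Ckm, 1.19 ± 0.04 for Atp2a1 (the SERCA1 pump of fast muscle) and 1.09 ± 0.03 for Ryr1 (its release channel). In that fit the cold value of Ckmt2 was -0.50 ± 0.24 at 6 h (adjusted p = 0.172) and 0.42 ± 0.19 at 24 h (adjusted p = 0.152). The step from 6 h to 24 h was 0.92 ± 0.24 and passed there (adjusted p = 0.0159), but it was not called without the covariate (2.52 ± 1.27, adjusted p = 0.204). The 3 genes most like Ckmt2 over the BAT libraries, Nrap, Mybpc1 and Myh2, each correlated at 0.99 and code for proteins of the muscle sarcomere or its junctions.

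The other members did not follow these skeletal muscle markers in BAT by this test. Markers of slow and cardiac-type muscle were not used as a covariate. The slope was -0.03 ± 0.03 for Ckb (adjusted p = 0.694), -0.04 ± 0.02 for Alpl (0.389), -0.00060 ± 0.011 for Atp2a2 (0.987), 0.07 ± 0.07 for Ryr2 (0.730) and 0.0075 ± 0.017 for Slc6a8 (0.889), all from edgeR. With muscle as a covariate the 24 h change in BAT was 3.75 ± 0.20 for Ckb (adjusted p = 6.54e-09), 1.73 ± 0.14 for Alpl (6.13e-07) and 0.31 ± 0.08 for Atp2a2 (0.0107). In iWAT the 24 h change with the covariate was 0.92 ± 0.20 for Ckb (adjusted p = 0.00754), 1.35 ± 0.33 for Alpl (0.0136), 0.77 ± 0.18 for Atp2a2 (0.0126) and -1.16 ± 0.30 for Gamt (0.0185). Without the muscle-rich iWAT library the same 4 members were called at 24 h, at 0.91 for Ckb, 1.33 for Alpl, 0.76 for Atp2a2 and -1.16 for Gamt. The iWAT covariate varies mainly through that library.

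In BAT at 24 h the muscle sums of replicates 1 to 5 were 55.8, 60.4, 1473, 896 and 4852 CPM, beside 599.9, 402, 544, 418 and 315 CPM of Ckb. Atp2a2 in the same libraries was 642, 698, 630, 628 and 683 CPM. In iWAT at 22 °C the muscle-rich replicate 2 had 132 CPM of Atp2a2, within the 121 to 179 CPM of the other 4 controls, and 13.3 CPM of Ckb, also within their range.

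**Figure D4:**
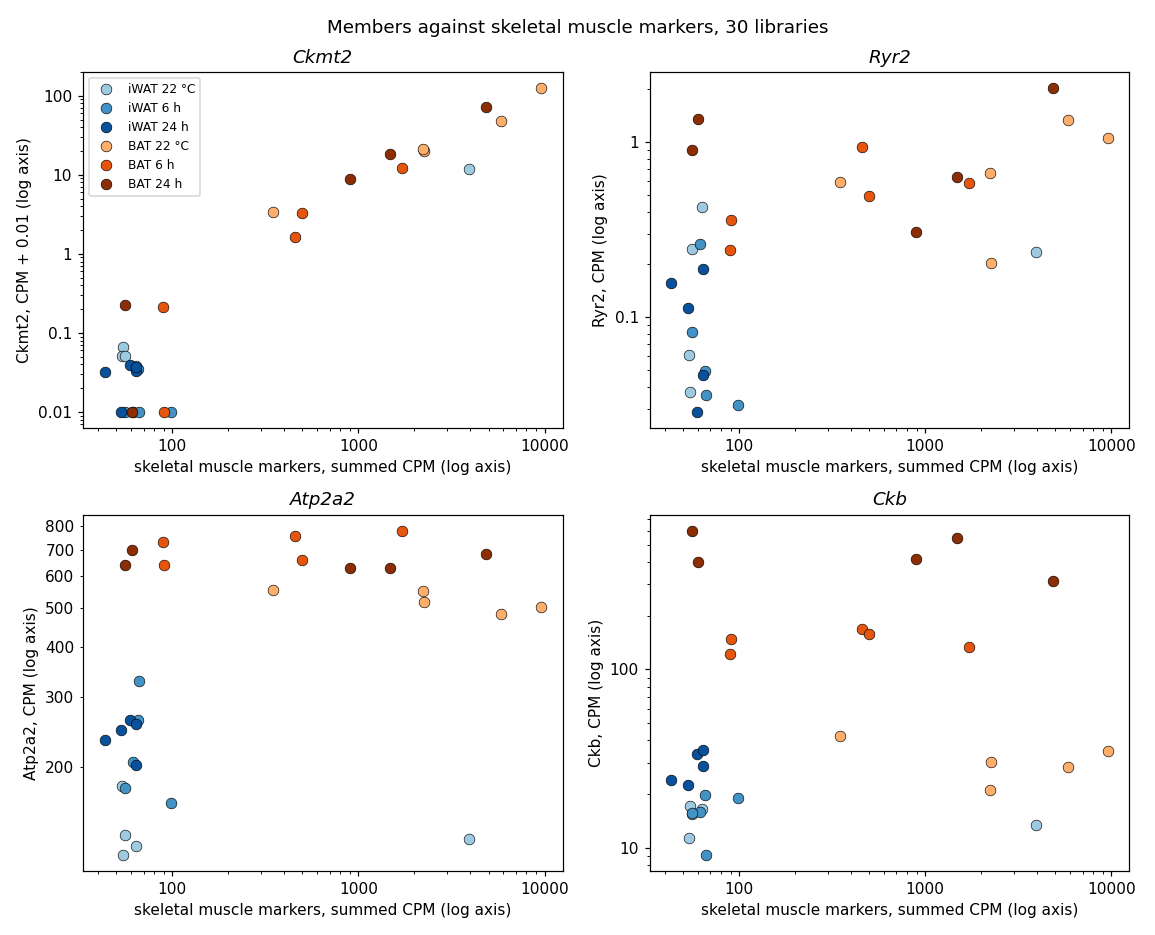
CPM of Ckmt2, Ryr2, Atp2a2 and Ckb (vertical, log axes, with 0.01 added for Ckmt2) against the summed CPM of 15 skeletal muscle markers (horizontal, log axis) in 30 libraries. Ckmt2 climbs with the marker sum from 0 counts to 125 CPM, whereas Atp2a2 and Ckb show no such climb within a tissue and temperature group.

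Ryr2 (ENSMUSG00000021313), the calcium release channel best known from heart, was near the limit of detection. In iWAT it had 1 to 15 counts per library, which the filter on low counts removed. In BAT it had 5, 13, 21, 33 and 31 counts at 22 °C, 9, 17, 27, 6 and 17 at 6 h, and 29, 29, 16, 9 and 59 at 24 h. All 3 groups overlapped. The log2 fold change was -0.56 ± 0.52 at 6 h (adjusted p = 0.478, edgeR) and 0.41 ± 0.51 at 24 h (adjusted p = 0.597), so no difference was detectable at this depth. Summed markers of slow and cardiac-type muscle spanned 1.02 to 97.7 CPM in BAT, and their part in Ryr2, Atp2a2 or the other members was not tested.

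Per gene length, Atp2a2 had the highest mean of the members in 5 of the 6 groups. At 22 °C its FPKM was 29.9 ± 5.18 (SD, n = 5) in iWAT and 73.8 ± 4.40 in BAT. In BAT at 22 °C Ckmt2 came next at 25.0 ± 27.6 FPKM and overlapped Atp2a2, reaching 71.4 FPKM in replicate 5, the library with the most muscle markers. In iWAT at 22 °C Gamt (7.71 ± 2.31 FPKM), Ckb (6.67 ± 1.06) and Gatm (6.63 ± 2.74) came next and overlapped each other, followed by Slc6a8 (3.48 ± 0.50). In BAT at 24 h Ckb reached 134 ± 31.4 FPKM, above Atp2a2 at 91.8 ± 4.64 FPKM on average, but the libraries of the 2 genes overlapped. Alpl came next there at 21.7 ± 3.81 FPKM and did not overlap Atp2a2.

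At 22 °C the tissues differed in all 8 tested members, where 66.9% of all genes were called. The 6 members higher in BAT were Ckb, Alpl, Slc6a8, Ckmt2, Atp2a2 and Ryr2, against 32.4% of all genes, and the 2 lower in BAT were Gatm and Gamt, against 34.5%. Ckmt2 and Ryr2 did not pass the filter in iWAT and were tested here through their BAT counts. Their direction was thus partly set by the filter, and the count of 6 is not to be read against the share. The largest of the differences other than Ckmt2 was Alpl, at 2.92 ± 0.26 on the log2 scale (7.58-fold higher in BAT, adjusted p = 7.00e-11, edgeR), with no overlap between tissues. Atp2a2 was higher by 1.91 ± 0.14 (3.75-fold, adjusted p = 1.53e-12), Ckb by 1.08 ± 0.19 (2.11-fold, adjusted p = 1.97e-05) and Slc6a8 by 0.99 ± 0.11 (1.99-fold, adjusted p = 1.25e-08). The sizes depend on the scaling. In FPKM, which are not TMM-scaled, the BAT and iWAT means were 9.28 and 6.67 for Ckb and 4.54 and 3.48 for Slc6a8. On that scale the libraries of the tissues overlapped for both genes. Across the other settings the log2 value was 0.40 to 1.23 for Ckb and 0.31 to 1.00 for Slc6a8.

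The synthesis enzymes went the other way, with Gatm 2.74 ± 0.37 lower in BAT on the log2 scale (6.69-fold, adjusted p = 2.05e-07) and Gamt 2.03 ± 0.36 lower (4.07-fold, adjusted p = 1.40e-05). At 22 °C no BAT library reached the lowest iWAT library for either gene. At that temperature 6 of 6 adipose progenitor and 8 of 8 macrophage markers were also lower in BAT, where 34.5% of all genes were. The part of these cell types in the differences of Gatm and Gamt was not tested. For Ckmt2 the difference of 4.22 ± 1.33 (adjusted p = 0.00647) moved with muscle content, and was 1.16 ± 0.30 with the muscle covariate (adjusted p = 0.00154) and 9.87 without iWAT replicate 2 (adjusted p = 2.34e-05). Ryr2 was 1.96 ± 0.61 higher in BAT (adjusted p = 0.00595), at 0.77 CPM on average against 0.20 CPM in iWAT. With the muscle covariate it was 1.53 ± 0.75 and was not called (adjusted p = 0.0794). Nor was Ryr2 called by limma on log2(FPKM + 1) (0.020, adjusted p = 0.291) or log2(FPKM + 0.1) (0.17, adjusted p = 0.150).

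Brown adipocyte markers also moved with cold. Of 9 such markers 4 of 8 tested rose in iWAT at each time, where 12.9% and 12.8% of all genes rose. Their sum there spanned 144 to 1261 CPM at 22 °C, 788 to 6013 CPM at 6 h and 3112 to 5233 CPM at 24 h. In BAT 4 of 9 rose at each time, where 12.5% and 12.8% of all genes rose. The sum in BAT spanned 13046 to 16638 CPM at 22 °C and 19307 to 27102 CPM in the cold. Ucp1, the proton carrier of brown fat, is among these markers. In iWAT, where 10.1% of all genes fell at each time, 4 of 8 endothelial markers fell at 6 h and 5 at 24 h. Of 6 adipose progenitor markers 2 and 1 fell, and of 8 macrophage markers 3 and 0 fell. In BAT 2 of the 8 macrophage markers rose at 24 h (median log2 fold change 0.70), where 12.8% of all genes rose. The part of these shifts in the tissue levels of the members was tested for the brown adipocyte list only.

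With the mean log2 level of the brown adipocyte markers as a covariate, added after the data were seen, no member was called in iWAT at 6 h or 24 h or in BAT at 6 h. That covariate shares its variation with the cold groups, and calls over all genes fell to 22, 15 and 31 in those 3 comparisons. For Ckb the values with it were 1.16 in iWAT at 24 h (adjusted p = 0.217) and 1.48 in BAT at 6 h (adjusted p = 0.0765). In BAT at 24 h Ckb (3.25, adjusted p = 0.000116) and Alpl (1.60, adjusted p = 0.00632) were called with the covariate, and Atp2a2 was 0.39 with adjusted p = 0.132. There 326 of 13090 genes were called. In iWAT Atp2a2 was 0.20 at 6 h (adjusted p = 0.682) and 0.23 at 24 h (adjusted p = 0.788). Over all 30 libraries Atp2a2 was the member with a called slope on these markers, 0.23 ± 0.06 (adjusted p = 0.0258), where 5.14% of all genes had one. Within tissues its slope was 0.24 ± 0.08 in iWAT (adjusted p = 0.120) and -0.12 ± 0.17 in BAT (adjusted p = 0.877), neither called. Between the tissues at 22 °C 2 members, Slc6a8 and Atp2a2, were called with the covariate, where 1091 of 14089 genes were. Gatm was -1.04 there (adjusted p = 0.510) and Gamt -0.70 (adjusted p = 0.670), and neither was called.

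The genes most like the responding members, by correlation of log2 CPM over 15 libraries, were as follows. For Ckb in BAT they were Nherf1, Lamp1 and Gnmt, each at 0.97, and in iWAT Snrpa1 (0.85), Crip2 (0.85) and Tyms (0.84). For Alpl in BAT they were Cpne5, Pgam1 and Pigq, each at 0.97, and in iWAT Gmpr (0.89), Vps72 (0.89) and Myo5b (0.85). For Atp2a2 they were Arfgef2 (0.98), Mtor (0.98) and Ube3c (0.97) in iWAT, and Usp8 (0.97), Ube3c (0.97) and Hspa4 (0.96) in BAT. Ube3c, a ubiquitin ligase, stood in both lists. For Gamt in iWAT they were Tmt1b (0.96), Cdsn (0.95) and Lrpap1 (0.95), and for Ryr2 in BAT Mfap3l (0.89), Sim2 (0.80) and Col12a1 (0.78).

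Genes around the members were counted in 5 lists. The list of phosphate and adenylate transfer holds carriers, porins, adenylate kinases and the phosphatase Phospho1. In iWAT 9 of its 12 tested genes rose and 0 fell at 6 h, with a median log2 fold change of 0.38 against -0.03 over all genes, and 7 rose and 0 fell at 24 h (median 0.47 against -0.04). Over all genes 12.9% rose and 10.1% fell at 6 h, and 12.8% and 10.1% at 24 h. Phospho1, which cleaves phosphocholine and phosphoethanolamine, rose by 1.72 ± 0.59 at 6 h (adjusted p = 0.0452, edgeR) and by 3.01 ± 0.59 at 24 h (adjusted p = 0.00266). With the muscle covariate its 6 h value was 1.72 and was not called (adjusted p = 0.0786). At 24 h it was followed by Slc25a5, an ADP/ATP carrier (0.76 ± 0.14), and the outer membrane porins Vdac2 (0.68 ± 0.11) and Vdac3 (0.60 ± 0.13).

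In BAT 1 of 13 genes of this list rose and 1 fell at 6 h (median -0.13 against -0.01), and 3 rose and 1 fell at 24 h (median 0.02 against -0.01). Over all genes 12.5% rose and 10.2% fell at 6 h, and 12.8% and 10.4% at 24 h. Phospho1 rose there by 0.76 ± 0.15 and 1.08 ± 0.15. The phosphate carrier Slc25a3 fell by 0.29 in BAT at 24 h and rose by 0.42 ± 0.10 in iWAT. The tested difference between the tissues in that response was -0.71 ± 0.13 (adjusted p = 0.00115, edgeR). For Phospho1 the difference at 24 h was -1.92 ± 0.57 (adjusted p = 0.0363). From 6 h to 24 h in BAT 2 genes rose, among them Slc25a5 (0.30 ± 0.08), and none fell. Over all genes 6.60% rose and 6.45% fell between these times. At 22 °C, where 32.4% of all genes were higher in BAT and 34.5% lower, 9 of 13 were higher and 1 was lower, the creatine exporter Slc16a12 (-3.90 ± 0.38). Ckm, among the 13, did not pass the filter in iWAT.

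The list of creatine precursor supply holds enzymes for serine, glycine, arginine and the methyl donor. In iWAT 4 of 13 rose and 0 fell at 6 h (median 0.17), and 4 rose and 2 fell at 24 h (median -0.09), beside all-gene shares of 12.9% and 10.1%, and 12.8% and 10.1%. Shmt1, which makes glycine from serine, rose by 1.21 ± 0.28 and 1.53 ± 0.28, and Phgdh, the entry to serine synthesis, fell by 0.54 at 24 h. In BAT 2 rose and 3 fell at 6 h (median -0.04), and 4 rose and 2 fell at 24 h (median -0.15), beside 12.5% and 10.2%, and 12.8% and 10.4%. Asl, which releases arginine, rose by 0.64 ± 0.16 and 0.65 ± 0.16 there, and Mat2a, which makes S-adenosylmethionine, fell by 0.42 at 24 h. At 22 °C 7 were higher and 6 lower in BAT (32.4% and 34.5% of all genes), with Phgdh (-3.65 ± 0.31) and Psat1 (-3.41 ± 0.27) lowest and Shmt1 (2.67 ± 0.23) highest.

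The calcium store list had 28 genes, of which Erln had no row. In iWAT 3 of 21 tested rose and 6 fell at 6 h (median -0.11), and 3 rose and 4 fell at 24 h (median -0.14). The rises are near the 12.9% and 12.8% of all genes that rose, and 10.1% of all genes fell at each time. The falls with the largest values, Ryr1 (-5.12 ± 1.36 and -5.29 ± 1.36) and Casq1 (-4.86 ± 1.22 and -4.78 ± 1.20), are muscle genes. With the muscle covariate Ryr1 was -0.71 ± 0.40 and -0.85 ± 0.40 (adjusted p = 0.233 and 0.154), and Casq1 was -1.06 ± 0.31 and -0.98 ± 0.30 (adjusted p = 0.0375 and 0.0370). Among the others, the SERCA3 pump Atp2a3 rose by 0.66 ± 0.15 at 24 h (adjusted p = 0.00704), and the inositol trisphosphate receptor Itpr3 fell by 0.75 at 6 h and by 0.51 at 24 h, the latter not called with the muscle covariate (-0.43, adjusted p = 0.105).

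In BAT 2 of 23 calcium store genes rose and 6 fell at 6 h (median -0.35, beside 12.5% and 10.2% of all genes), and 4 rose and 1 fell at 24 h (median -0.14, beside 12.8% and 10.4%). The largest falls at 6 h were Mrln (-3.29 ± 1.12), Jph2 (-2.15 ± 0.62) and Jph1 (-1.59 ± 0.52), genes of muscle membranes. With the muscle covariate Mrln was -0.94 ± 0.95 (adjusted p = 0.554), Jph2 -0.95 ± 0.43 (adjusted p = 0.145) and Jph1 -0.54 (adjusted p = 0.263). The calcium-binding chaperones of the endoplasmic reticulum rose at both times, Canx by 0.57 ± 0.06 and 0.38 ± 0.06 and Calr by 0.25 ± 0.07 and 0.68 ± 0.07. With the muscle covariate Calr at 6 h was 0.22 and was not called (adjusted p = 0.0854). The plasma membrane calcium channel subunit Orai3 fell by 0.50 and 0.53. From 6 h to 24 h Calr, Itpr2 and the store sensor Stim1 rose, by 0.42 ± 0.07, 0.34 ± 0.10 and 0.32 ± 0.06. In that step 3 of 23 rose and 0 fell, beside 6.60% and 6.45% of all genes.

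Of 10 mitochondrial calcium genes 3 rose and 0 fell in iWAT at 6 h (median 0.17, beside 12.9% and 10.1% of all genes), and 3 rose and 1 fell at 24 h (median 0.21, beside 12.8% and 10.1%). Letm1, an inner membrane cation exchanger, rose by 0.76 ± 0.18 and 1.13 ± 0.19. In BAT 2 rose and 2 fell at 6 h (median 0.04, beside 12.5% and 10.2%), and 4 rose and 0 fell at 24 h (median 0.17, beside 12.8% and 10.4%). Mcu, the pore of the calcium uniporter, fell by 0.33 at 6 h in BAT and rose by 0.56 ± 0.09 from 6 h to 24 h (adjusted p = 0.000723). Its gatekeeper Micu2 fell by 0.39 and rose by 0.42 ± 0.06 over the same steps, which share the 6 h libraries. Between 6 h and 24 h in BAT 4 of the 10 rose and 1 fell, beside 6.60% and 6.45% of all genes. At 22 °C 8 of the 10 were higher in BAT and 2 were lower, where 32.4% and 34.5% of all genes were.

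Of the plasma membrane calcium genes 0 of 5 tested rose in iWAT and 2 fell at 6 h (median -0.61, beside 12.9% and 10.1% of all genes). These were the sodium/calcium exchanger Slc8a1 (-1.40 ± 0.27, adjusted p = 0.00374) and the channel Cacna1c (-0.61 ± 0.18, or -0.54 and not called with the muscle covariate, adjusted p = 0.0600), and Slc8a1 also fell at 24 h (-0.99 ± 0.26). In BAT the pump Atp2b4 fell at 24 h (-0.69 ± 0.19, adjusted p = 0.0139, or -0.59 and 0.0548 with the muscle covariate), where 10.4% of all genes fell, and none of 6 was called at 6 h. At 22 °C 4 of 7 were lower in BAT and 0 were higher, beside 34.5% and 32.4% of all genes. None of the genes of the 5 lists was called from 6 h to 24 h in iWAT by edgeR.

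**Figure D5:**
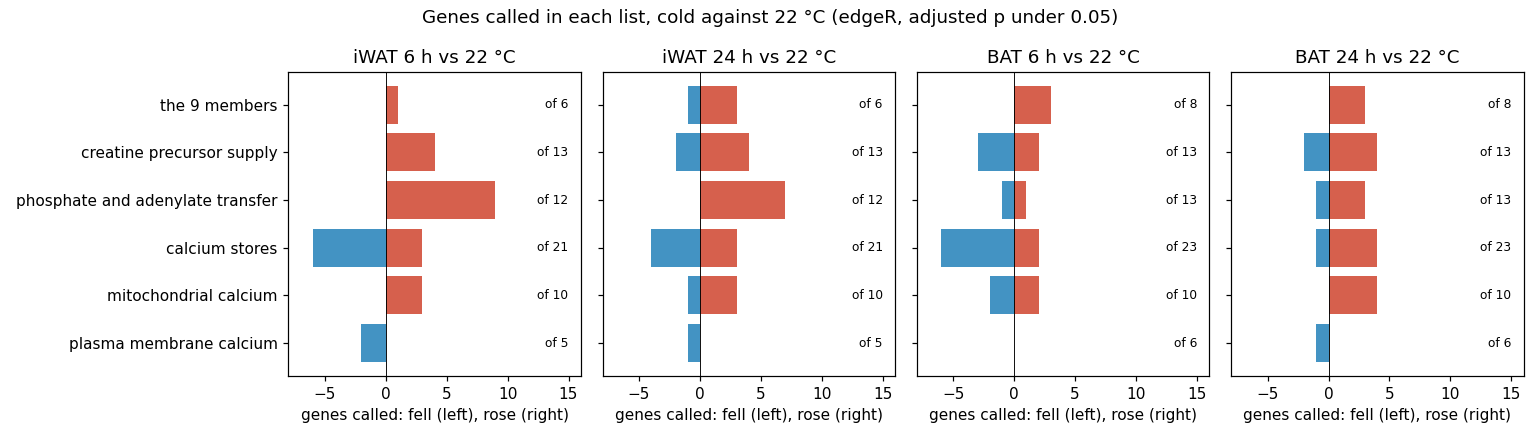
Number of genes called in each list (rows) that rose (right of 0) or fell (left of 0) against 22 °C, in iWAT and BAT at 6 h and 24 h, with the number tested at the right edge. Phosphate and adenylate transfer has 9 and 7 rises among 12 genes in iWAT and 1 and 3 among 13 in BAT, and the falls in calcium stores include muscle genes.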

How the data were processed

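Counts are whole numbers of reads per gene that the authors deposited. FPKM were deposited by the authors too and equalled counts divided by gene length and library total in all 339780 values with a count of at least 50 (within 1e-06). The submitters' processing notes name HISAT2, HTSeq and GRCm39, and their versions are not given in the sources used here. Strandedness is not stated, so overlapping genes were not told apart.

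In R 4.3.3, edgeR 4.0.16 kept genes by filterByExpr (minimum count 10), scaled by TMM and ran its quasi-likelihood test with Benjamini-Hochberg adjustment, with 15 libraries per tissue in a fit and 30 for comparisons of tissues. Errors of log2 fold changes are approximate (size over the root of F). Alternatives used DESeq2 1.42.0, limma 3.58.1 on log2(FPKM + 1) and log2(FPKM + 0.1), other scalings and filters, covariates, and leaving out each library. On simulated data with 200 changed genes, edgeR called 178 with 11 false in iWAT at 24 h (13689 genes) and 185 with 8 false in BAT at 24 h (13090 genes).

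Members and lists were chosen with earlier results of these data known. Beside the members, up to 4 called genes with the largest change per list and comparison were eligible to be named, with their values at the other time given too, and muscle genes were singled out after their values were seen. Values of some listed genes are not reported here.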

Additional observations from a re-analysis of the deposited data

Results flagged for a closer look

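Of 54 groups of 5 libraries, 12 held a library set apart from the others by a gap over 0.71 of the range. A rate of about 1 in 20, or 2.7 groups, would hold only for normally distributed values. Groups with a few reads or uneven muscle content do not meet that, so the 12 cannot be compared with that rate.

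Alpl was 24.4 CPM in BAT 22 °C replicate 4, below the 28.3 to 29.2 CPM of the others. Gamt was 12.8 CPM in iWAT 6 h replicate 1, above 5.20 to 6.87 CPM. Atp2a2 was 179 CPM in iWAT 22 °C replicate 3, above 121 to 136 CPM. Ryr2 was 0.263 CPM in iWAT 6 h replicate 2, above 0.0317 to 0.0828 CPM, from a handful of reads.

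Ckmt2 stood apart in 5 groups. It was 11.8 CPM in iWAT 22 °C replicate 2, 12.1 CPM in BAT 6 h replicate 2 (others 0 to 3.26) and 72.6 CPM in BAT 24 h replicate 5 (others 0 to 18.5), and each of these was the library of its group with the highest muscle marker sum. It was 0.0248 CPM in iWAT 6 h replicate 5 and 0 in iWAT 24 h replicate 4 (others 0.0224 to 0.0288), differences of 1 read. Ckmt1 was 0.0402 CPM in BAT 22 °C replicate 4, 0.160 CPM in BAT 6 h replicate 1 and 0.0396 CPM in BAT 24 h replicate 3, from 1, 4 and 1 reads.

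The response of Ckb to cold differed between BAT and iWAT by a test of the difference itself, by 2.12 at 6 h and 2.91 at 24 h on the log2 scale.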

How the results depend on the processing

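Of 2162 log2 fold changes of members under other settings, 2042 kept their direction and side of the threshold, 21 lost and 25 gained a call, and 74 changed sign. None of these 74 was of a called value, and 0 were called after the change. The covariates of nerve and brown adipocyte markers were chosen after seeing the data.

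The number of members called in iWAT at 6 h (1) was 2 with upper-quartile factors, without a filter, with a filter of 1 CPM in 5 libraries, with DESeq2 and with all 30 libraries in 1 fit, and 1 to 2 when a library was left out (2 without 22 °C replicate 3). From 6 h to 24 h in iWAT (0) it was 2 with DESeq2 and with all 30 libraries. With the brown adipocyte covariate it was 0 in iWAT at 6 h and 24 h and in BAT at 6 h, and 2 between the tissues. The number whose response differed between tissues (1) was 2 on log2(FPKM + 1) at 6 h and 24 h and 2 on log2(FPKM + 0.1) at 6 h. Over all genes, leaving out 1 library gave 1525 to 4032 calls in iWAT at 6 h, 2053 to 3646 at 24 h and 0 to 13 between those times. The other settings gave 22 to 4899, 15 to 4163 and 0 to 122 calls in these comparisons.

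Values that changed sign were as follows. With upper-quartile factors Alpl in iWAT at 6 h was -0.010, and Gatm in BAT was -0.0092 at 6 h, -0.0067 at 24 h and 0.0025 between them. With the 1 CPM filter Gatm in BAT at 24 h was -0.0083. With the muscle covariate Ckmt2 in BAT at 24 h was 0.42 and Gatm from 6 h to 24 h 0.014. With the nerve covariate Alpl in iWAT at 6 h was -0.044. With the brown adipocyte covariate Alpl (-0.57) and Gamt (0.40) in iWAT at 6 h, Gatm in iWAT at 24 h (0.22), Ckmt2 (1.22) and Ryr2 (1.90) in BAT at 6 h and Ckmt2 in BAT at 24 h (2.45) changed sign, as did the tissue differences of Atp2a2 at 6 h (0.019) and of Gatm (-0.13) and Gamt (-0.36) at 24 h. On log2(FPKM + 1) these were Ckb (-0.16) and Alpl (-0.14) in iWAT at 6 h, Slc6a8 in iWAT at 24 h (-0.0066), Gatm in BAT (-0.023 and -0.024), and the tissue differences of Gamt (0.068), Ckmt2 (-2.12) and Ryr2 (-0.0033) at 6 h and Ckmt2 at 24 h (-0.91). On log2(FPKM + 0.1) they were -0.19, -0.30, -0.011, -0.11 and -0.15, and for the differences of Ckmt2 -2.51 and -1.19 and of Ryr2 -0.019. The cause was not tested.

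Leaving out 1 library gave -0.012 to 0.22 for Ckb, and -0.21 to 0.29 for Alpl, in iWAT at 6 h. It gave -0.012 to 0.26 for Atp2a2 in iWAT from 6 h to 24 h, and for Gatm in BAT -0.37 to 0.16 at 6 h, -0.33 to 0.21 at 24 h and -0.35 to 0.37 between them. For Slc6a8 in BAT at 6 h it gave -0.10 to 0.011. For tissue differences it gave -0.048 to 0.095 for Slc6a8, -1.37 to 5.64 for Ckmt2 at 6 h, -0.15 to 0.38 for Gamt and -0.13 to 6.44 for Ckmt2 at 24 h.

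The replicate numbers were not treated as pairing the libraries, since 19 of 75 correlations of same-numbered libraries exceeded 0.1 (-0.58 to 0.56) and 20 of 75 were highest with the own number. Between iWAT and BAT at 24 h all 5 libraries correlated best with their own number (0.082 to 0.34), a hint from the data and not from the labels. With the replicate number as a block Alpl in iWAT at 6 h was -0.039 and Gatm in BAT -0.14 at 6 h and -0.16 at 24 h. Gamt in BAT at 24 h gained a call (adjusted p = 0.0273), and the block changed no other member's call. The block joins equal numbers across temperatures. A pairing of iWAT with BAT of the same number within a temperature was not modelled. Among the other genes named, calls in iWAT were lost under the block for Phospho1 at 6 h (adjusted p = 0.114), Casq1 at 6 h and 24 h (0.135 and 0.122) and Ryr1 (0.177 and 0.161). Depth limits Ckmt1 and Ryr2, which had at most 5 and 59 counts in a library.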
